A study of Mus musculus with 16 samples.

Results

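Glucose breakdown and the response to low oxygen are described here through 31 genes of the mouse, taken by name from the 53800 genes of the deposited count table. They were the glucose transporters, the enzymes of glycolysis, the genes that decide where pyruvate and lactate go, and regulators and targets of the hypoxia response. Each name matched 1 gene, and all 31 passed the filter on low counts. The RNA came from the distal 150 micrometres of forelimb buds of B6 mouse embryos on 4 successive days, E9.5 to E12.5. The limb tips were kept on ice in 0.25% trypsin for 20 minutes, and the ectoderm (the covering epithelium) was then lifted off the mesoderm with forceps. The 16 polyadenylated RNA libraries, made with a stranded kit, formed 8 groups of 2: ectoderm and mesoderm at each of the 4 stages, with no treatment other than the trypsin that all shared. At a given stage, the ectoderm and mesoderm libraries with 1 number share a pool of embryos, so each group holds 2 such batches. Replicate 1 was purified with the RNeasy Plus Mini kit and replicate 2 with the RNeasy Mini kit, so the batch and the kit cannot be told apart.

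Total counts ran from 10005867 to 30438214 per library. The labelled layers had the markers of their tissue: the summed level of 10 surface epithelium markers was 2337 to 6829.6 CPM (counts scaled to 1000000 a library by TMM) in ectoderm and 6.65 to 83.3 CPM in mesoderm. The 8 limb mesenchyme markers summed to 1763 to 4001 CPM in mesoderm and 407 to 1095 CPM in ectoderm. Mesoderm also held blood and vessels, with erythroid markers at 2361 to 5247 CPM against 12.7 to 751 CPM in ectoderm and endothelial markers at 355 to 671 against 3.57 to 33.02 CPM. In such bulk samples, fewer cells of a type and less RNA per cell cannot be told apart. Values by library are given below as pairs, replicate 1 before replicate 2, in order of stage, and all changes and differences are log2 ratios.

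As background, glycolysis turns glucose into pyruvate in the cytosol and yields ATP without oxygen. Pyruvate then enters the mitochondria through pyruvate dehydrogenase, or is reduced to lactate, which leaves the cell through monocarboxylate transporters. When oxygen is low, the prolyl hydroxylases that mark HIF1A for destruction slow down, and the stabilised factor binds a short core motif (A or G followed by CGTG) near many glycolysis genes. Embryos before a full circulation are known for a glycolytic metabolism, and the limb bud forms while the circulation and the placenta are maturing.

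The members differed widely in level. On the length-corrected scale of the authors' deposited FPKM values, the median level over the 16 libraries was highest for Pkm (pyruvate kinase) at 985, then Gapdh at 765, Ldha (lactate dehydrogenase A) at 648, Eno1 (enolase) at 345 and Tpi1 (triosephosphate isomerase) at 298 FPKM. It was lowest for Eno2, the enolase known from neurons, at 0.195 FPKM, followed by Aldoc (aldolase C) at 1.82 and Egln3 (a HIF prolyl hydroxylase) at 2.01 FPKM. The library ranges of Pkm, Gapdh and Ldha, 584 to 1838, 489 to 1158 and 331 to 2128 FPKM, overlapped, so their order is not fixed across libraries. Eno2 had 213 counts over all 16 libraries, and its values below rest on those.

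**Figure D1:**
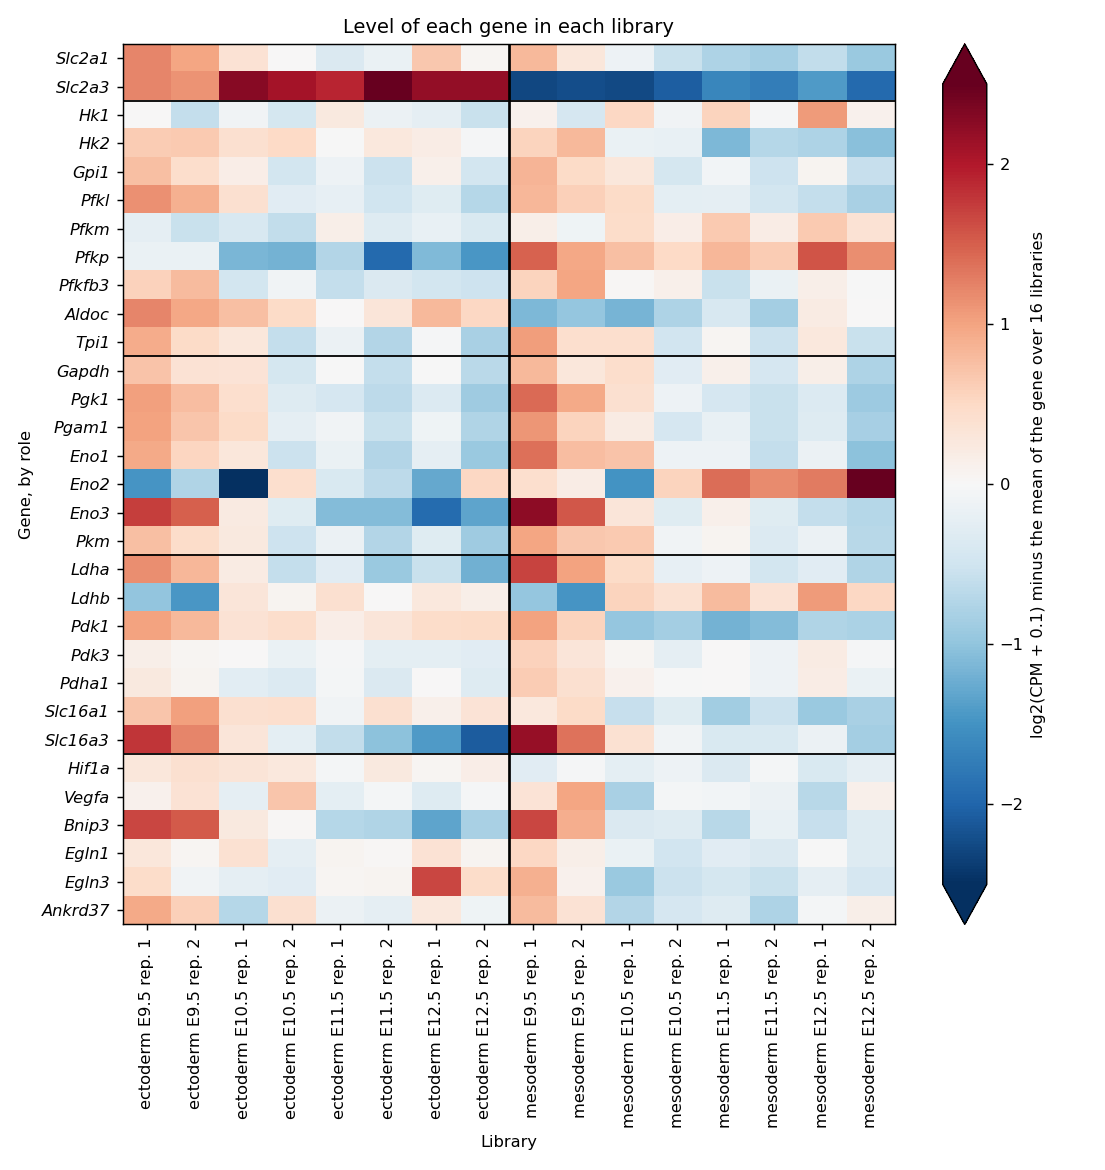
Level of the 31 genes (rows, grouped by role) in the 16 libraries (columns), as log2(CPM + 0.1) minus the mean of the gene over all libraries, red above and blue below that mean; "rep." stands for replicate. Most glycolysis genes are red in the 4 E9.5 libraries, Ldhb is blue there, and Slc2a3 is red in the 8 ectoderm libraries and blue in the 8 mesoderm libraries.

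The comparison of E12.5 with E9.5 within a layer asked how these genes changed as the bud grew out. Most members had lower levels at the later stage in both layers. In ectoderm 9 members were lower and 2 higher at a Benjamini-Hochberg adjusted p under 0.05 (edgeR quasi-likelihood F test over 15501 genes), where 7.0% of all tested genes were lower and 9.10% higher. In mesoderm 15 were lower and 2 higher, against 12.6% and 17% of all tested genes. The median log2 change of the 31 was -0.70 in ectoderm and -0.88 in mesoderm, with the median of all tested genes at 0.00 and 0.02. The 31 were chosen with earlier results of these data known, so these contrasts with all tested genes are no test. The 9 genes lower in ectoderm, namely Pfkl, Pfkfb3, Pgk1, Pgam1, Eno3, Pkm, Ldha, Slc16a3 and Bnip3, were all among the 15 of mesoderm, and Ldhb was higher in both layers. With the replicate number, which stands for the RNA kit, as a block, 20 members were lower and 3 higher in ectoderm, where that fit called 17.5% and 17.8% of all tested genes. In mesoderm it called 22 members lower and 5 higher, against 24.8% and 26.7%. Of the 31, 24 had lower values at E12.5 in both replicates of ectoderm, and 24 in both replicates of mesoderm. Without ectoderm E9.5 replicate 1 or without ectoderm E12.5 replicate 2 the ectoderm count of lower members was 5. Its count of higher members was 1 when the first E9.5 ectoderm replicate was left out and 0 when the second was. In mesoderm the count of higher members was 1 without replicate 1 of E9.5 or of E12.5 and 4 without replicate 2 of E12.5. Other cell types moved over the same interval: erythroid markers summed to 100.1 and 751 CPM in E9.5 ectoderm and 43.3 and 12.7 CPM at E12.5, and macrophage markers to 2.197 and 1.17 CPM in E9.5 mesoderm and 156 and 68.4 CPM at E12.5. Cartilage markers were higher in mesoderm for 4 of 5 tested (median log2 change 3.21). Of 8 cell division markers, 3 were lower in ectoderm, and 3 lower and 1 higher in mesoderm. Of 12 markers of the response to dissection and dissociation, 3 were higher and 1 lower in ectoderm, and 1 higher and 1 lower in mesoderm. The part of these markers in the changes was not tested.

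Of the glucose transporters, Slc2a3 rose in ectoderm and Slc2a1 fell in mesoderm. Slc2a3 (GLUT3, a high-affinity transporter) had 780.4 and 724, then 1623 and 1422, then 1247 and 1903, then 1535 and 1535 CPM in the 2 ectoderm libraries of each stage. Both E9.5 libraries lay below the other 6, and the change to E12.5 was 1.03 (SE 0.22, edgeR adjusted p = 0.00849). That call was lost without ectoderm E9.5 replicate 1 or ectoderm E9.5 replicate 2 (edgeR adjusted p from 0.0507 to 0.0787). In mesoderm Slc2a3 stood at 69.2 and 71.4, then 69.8 and 80.6, then 108 and 101, then 124 and 87.2 CPM, with a log2 change of 0.59 (SE 0.22, edgeR adjusted p = 0.0632), which passed with the replicate block (edgeR adjusted p = 0.0197). Slc2a1 (GLUT1, the widespread basal transporter) stood at 311 and 215, then 161 and 119.8, then 104 and 98.8, then 116 and 93.7 CPM in mesoderm and fell with a log2 change of -1.33 (SE 0.26, edgeR adjusted p = 0.00272). Its change in ectoderm was -0.71 (SE 0.25, edgeR adjusted p = 0.0846) and passed with the replicate block (-0.73, edgeR adjusted p = 0.0035). The difference between the layers in this change was not called for either transporter (0.62, SE 0.36, edgeR adjusted p = 0.389 for Slc2a1 and 0.44 (SE 0.31, edgeR adjusted p = 0.517) for Slc2a3), though for Slc2a1 it was when the embryo batch was blocked (0.58, edgeR adjusted p = 0.0241).

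Of the 9 genes of upper glycolysis, 2 fell in ectoderm, and 3 fell and 1 rose in mesoderm. Of all tested genes, 7.0% fell in ectoderm, and 12.6% fell and 17% rose in mesoderm. Pfkl, the liver-type subunit of phosphofructokinase, which commits sugar to glycolysis, had 873 and 735, then 521 and 323, then 342 and 281, then 318 and 240.4 CPM in ectoderm. Its mesoderm libraries had 700.2 and 593, then 547 and 334, then 339 and 286, then 261 and 225 CPM. Both E9.5 libraries exceeded every later library of their layer, and Pfkl fell with a log2 change of -1.52 (SE 0.28, edgeR adjusted p = 0.00397) in ectoderm and -1.41 (SE 0.28, edgeR adjusted p = 0.00347) in mesoderm. Pfkfb3, which makes the activator of phosphofructokinase, fell with a log2 change of -1.19 (SE 0.21, edgeR adjusted p = 0.00254) in ectoderm and -0.72 (SE 0.20, edgeR adjusted p = 0.0206) in mesoderm. The mesoderm call was lost without mesoderm E9.5 replicate 2, mesoderm E12.5 replicate 1 or mesoderm E12.5 replicate 2 (edgeR adjusted p from 0.0624 to 0.152), without a filter on low counts and with only the 2 groups in the fit. Hk2, the inducible hexokinase bound to mitochondria, fell in mesoderm with a log2 change of -1.59 (SE 0.18, edgeR adjusted p = 0.000128) and had -0.56 (SE 0.18, edgeR adjusted p = 0.0504) in ectoderm, where the replicate block called it lower (-0.56, edgeR adjusted p = 0.0104). Aldoc rose in mesoderm by 1.20 (SE 0.30, edgeR adjusted p = 0.0103), a call lost without mesoderm E9.5 replicate 1 or mesoderm E12.5 replicate 1 (edgeR adjusted p from 0.0618 to 0.0735). Its ectoderm change was -0.43 (SE 0.28, edgeR adjusted p = 0.372). The other 5 (Hk1, Gpi1, Pfkm, Pfkp and Tpi1) were called in neither layer, with log2 changes from -1.12 (Pfkp) to 0.09 (Pfkm) in ectoderm and from -0.90 (Gpi1) to 0.80 (Hk1) in mesoderm. Hk1 is the constitutive hexokinase and Gpi1 converts glucose 6-phosphate to fructose 6-phosphate. The replicate block called Gpi1 and Tpi1 lower in both layers, Pfkp lower in ectoderm (-1.15, edgeR adjusted p = 0.00478), and Hk1 and Pfkm higher in mesoderm (0.76 and 0.49, edgeR adjusted p = 0.000479 and 0.00102).

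In lower glycolysis 4 of 7 genes fell in ectoderm and 5 of 7 in mesoderm, against 7.0% and 12.6% of all tested genes. The steepest was Eno3, the enolase known from muscle, at 71.1 and 60.5, then 25.01 and 17.4, then 10.1 and 10.1, then 5.58 and 8.57 CPM in ectoderm. In mesoderm it stood at 102 and 63.6, then 26.5 and 17.5, then 23.5 and 17.4, then 14.1 and 13.1 CPM. All 4 E9.5 libraries lay above the 12 later ones, and Eno3 fell with a log2 change of -3.22 (SE 0.33, edgeR adjusted p = 9.62e-05) in ectoderm and by -2.60 (SE 0.32, edgeR adjusted p = 0.000194) in mesoderm, calls that held in all alternatives run. Muscle markers moved with it: of 9 listed, 4 were tested, of which 3 were lower in ectoderm and 4 in mesoderm, and their summed level went from 50.5 and 33.9 CPM at E9.5 to 0.654 and 0.732 CPM at E12.5 in mesoderm. Of the muscle regulators, Myod1 had 2 counts over the 8 mesoderm libraries and 3 over the 8 ectoderm libraries, and Myog had 1 and 10. The part of muscle cells in the Eno3 values was not tested.

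Pgk1 (phosphoglycerate kinase, the step that first yields ATP) stood at 581 and 490.0, then 386 and 230.3, then 215 and 182, then 227 and 155 CPM in ectoderm and 769 and 553, then 379 and 264, then 213 and 195, then 227 and 152 CPM in mesoderm. It fell with a log2 change of -1.49 (SE 0.31, edgeR adjusted p = 0.0079) and -1.80 (SE 0.31, edgeR adjusted p = 0.00154), and the ectoderm call was lost without ectoderm E9.5 replicate 1 or ectoderm E12.5 replicate 2 (edgeR adjusted p from 0.055 to 0.0755). Pgam1 (phosphoglycerate mutase) fell with a log2 change of -1.25 (SE 0.34, edgeR adjusted p = 0.0278) in ectoderm and -1.41 (SE 0.34, edgeR adjusted p = 0.00964) in mesoderm. The first of these calls was lost without ectoderm E9.5 replicate 1, ectoderm E9.5 replicate 2 or ectoderm E12.5 replicate 2 (edgeR adjusted p from 0.0708 to 0.195) and the other without mesoderm E9.5 replicate 1 or mesoderm E12.5 replicate 2 (edgeR adjusted p from 0.0777 to 0.0798). Pkm fell with a log2 change of -1.17 (SE 0.36, edgeR adjusted p = 0.0488) and -1.23 (SE 0.36, edgeR adjusted p = 0.0254), with the ectoderm call lost without any 1 of 11 libraries (edgeR adjusted p from 0.051 to 0.275) and the mesoderm call without mesoderm E9.5 replicate 1 or mesoderm E12.5 replicate 2 (edgeR adjusted p from 0.128 to 0.161). Eno1 fell in mesoderm with a log2 change of -1.62 (SE 0.43, edgeR adjusted p = 0.0156), lost without mesoderm E9.5 replicate 1 or mesoderm E12.5 replicate 2 (edgeR adjusted p from 0.105 to 0.117), and had -1.28 (SE 0.43, edgeR adjusted p = 0.0668) in ectoderm. Gapdh, often used as a reference gene, stood at 1882 and 1476, then 1461 and 851, then 1153 and 762, then 1155 and 725 CPM in ectoderm and 2037 and 1401, then 1565 and 951, then 1259.9 and 863, then 1281 and 674 CPM in mesoderm. Its log2 change was -0.84 (SE 0.41, edgeR adjusted p = 0.221) and -0.81 (SE 0.41, edgeR adjusted p = 0.171). With the replicate block it was called lower in both layers (-0.87 and -0.86, edgeR adjusted p = 0.000133 and 7.3e-05), as were Tpi1 and, in ectoderm, Eno1. Eno2 was not called (1.13 ± 1.31 and 1.91 ± 1.05, log2 change ± SE).

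**Figure D2:**
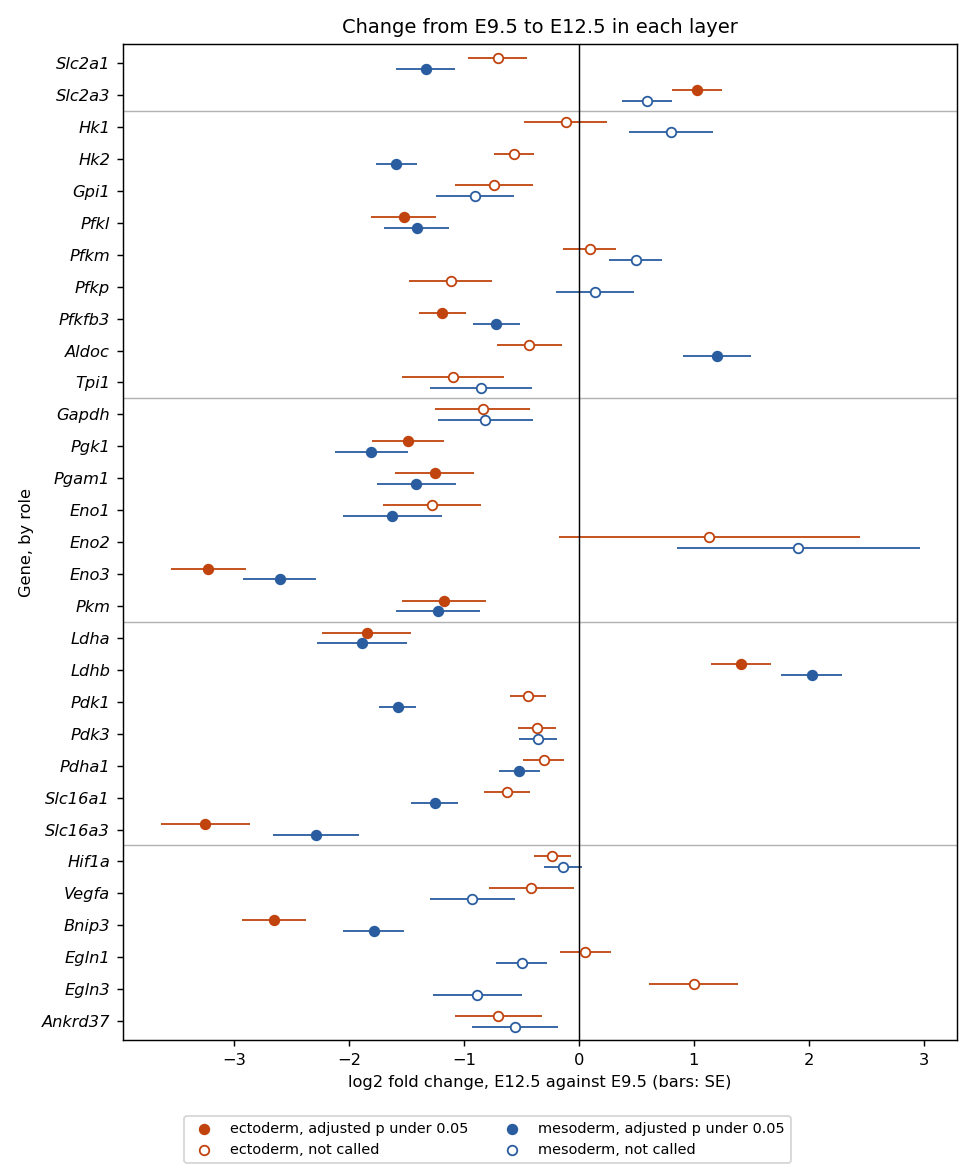
log2 fold change from E9.5 to E12.5 (x axis) of the 31 genes (y axis, grouped by role) in ectoderm (orange) and mesoderm (blue), with bars of 1 SE from edgeR; filled points have an adjusted p under 0.05. Filled points to the left are the 9 lower members of ectoderm and the 15 of mesoderm, and Ldhb is filled on the right in both layers.

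The enzymes and transporters that settle the fate of pyruvate changed in unlike ways. Ldha, which favours the making of lactate, stood at 3135 and 2485, then 1617 and 932, then 1157 and 734, then 951 and 612 CPM in ectoderm. In mesoderm it stood at 4489 and 2828, then 1949 and 1209, then 1290.4 and 1013, then 1148 and 833 CPM. The 4 E9.5 libraries were the highest of their layers, and Ldha fell with a log2 change of -1.85 (SE 0.39, edgeR adjusted p = 0.00801) in ectoderm and -1.88 (SE 0.39, edgeR adjusted p = 0.00409) in mesoderm, the ectoderm call being lost without ectoderm E9.5 replicate 1 or ectoderm E12.5 replicate 2 (edgeR adjusted p from 0.0542 to 0.0755). Ldhb, the subunit that favours the way back to pyruvate, had 52.6 and 37.6, then 129 and 109, then 137 and 105, then 124 and 115 CPM in ectoderm. Mesoderm had 52.8 and 37.2, then 153 and 134, then 181 and 134, then 217 and 149 CPM. All 4 E9.5 libraries lay below the 12 later ones, and Ldhb rose by 1.41 (SE 0.26, edgeR adjusted p = 0.00397) in ectoderm and 2.02 (SE 0.27, edgeR adjusted p = 0.000287) in mesoderm. The ectoderm call was lost without ectoderm E9.5 replicate 2 (edgeR adjusted p = 0.0577).

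Slc16a3 (MCT4, a lactate exporter) stood at 344 and 232, then 122 and 84.2, then 65.3 and 48.8, then 37.2 and 23.3 CPM in ectoderm. Its mesoderm libraries had 452 and 256, then 129 and 93.3, then 76.3 and 76.7, then 90.3 and 54.9 CPM. The E9.5 libraries were the highest in each layer, and Slc16a3 fell with a log2 change of -3.25 (SE 0.39, edgeR adjusted p = 0.000277) in ectoderm and -2.29 (SE 0.37, edgeR adjusted p = 0.00104) in mesoderm. Slc16a1 (MCT1, which carries lactate either way) fell in mesoderm with a log2 change of -1.25 (SE 0.20, edgeR adjusted p = 0.000993). Its ectoderm change was -0.63 (SE 0.20, edgeR adjusted p = 0.0554), called with the replicate block (-0.62, edgeR adjusted p = 0.000735). Pdk1, a kinase that switches pyruvate dehydrogenase off, fell in mesoderm with a log2 change of -1.58 (SE 0.16, edgeR adjusted p = 7.38e-05) and had -0.44 (SE 0.16, edgeR adjusted p = 0.0858) in ectoderm, called with the replicate block (-0.44, edgeR adjusted p = 0.022). Pdha1, the catalytic subunit of pyruvate dehydrogenase, fell in mesoderm with a log2 change of -0.52 (SE 0.18, edgeR adjusted p = 0.0495). That call was lost without any 1 of 14 libraries (log2 change from -0.63 to -0.35). Pdk3, a related kinase, was not called (-0.36 ± 0.16 and -0.36 ± 0.16), and the replicate block called it lower in both layers (-0.36 and -0.35, edgeR adjusted p = 0.00955 and 0.00601).

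Among the hypoxia regulators and targets, 1 of 6 fell in each layer, where 7.0% (ectoderm) and 12.6% (mesoderm) of all tested genes did. Bnip3, a target that promotes the removal of mitochondria, stood at 101 and 92.7, then 37.7 and 32.3, then 19.4 and 19, then 12.7 and 18.1 CPM in ectoderm. In mesoderm it had 101 and 60.1, then 24.7 and 25.3, then 19.8 and 28.2, then 21.3 and 25.5 CPM. All 4 E9.5 libraries exceeded the 12 later ones, and Bnip3 fell with a log2 change of -2.65 (SE 0.28, edgeR adjusted p = 0.000108) in ectoderm and -1.79 (SE 0.27, edgeR adjusted p = 0.000629) in mesoderm in all alternatives run. Hif1a, the oxygen-regulated transcription factor subunit, ranged from 204 to 278 CPM (median 251) in ectoderm and from 162 to 204 CPM (median 179) in mesoderm, with changes of -0.23 (SE 0.16, edgeR adjusted p = 0.416) and -0.14 (SE 0.16, edgeR adjusted p = 0.586) that were not called. HIF1A is controlled mainly as a protein, which these data do not measure. Vegfa (the angiogenic growth factor), Egln1 and Egln3 (HIF prolyl hydroxylases) and Ankrd37 (a known HIF1 target) were not called in either layer. Their log2 changes ran from -0.70 (Ankrd37) to 0.999 (Egln3) in ectoderm and from -0.93 (Vegfa) to -0.50 (Egln1) in mesoderm. The replicate block called Vegfa, Egln1 and Egln3 lower in mesoderm and Egln3 higher in ectoderm (edgeR adjusted p = 0.00239, 0.00429, 0.0374 and 0.0304).

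Stretches just before the start of 5 members whose change was called in both layers are shown because they differ in the HIF core motif. RefSeq (GRCm38.p6) windows of 250 bases before the start were searched for ACGTG and for GCGTG on both strands, and capitals mark each match (a match on the other strand reads CACGT or CACGC), so that CACGTG holds ACGTG on each strand and counts 2 times. They lie at chr7:46845554-46845803 (plus strand) for Ldha, chr7:138909507-138909756 (minus strand) for Bnip3, chr11:120948817-120949066 (plus strand) for Slc16a3, chrX:106186850-106187099 (plus strand) for Pgk1 and chr6:142507958-142508207 (minus strand) for Ldhb. The windows of Ldha and Slc16a3 lie inside the span that the GENCODE annotation gives the gene, and the others border it or, for Bnip3, reach slightly into it. Ldha has a further window, not shown, with 1 GCGTG. These 5 were chosen with their values known.
Ldha: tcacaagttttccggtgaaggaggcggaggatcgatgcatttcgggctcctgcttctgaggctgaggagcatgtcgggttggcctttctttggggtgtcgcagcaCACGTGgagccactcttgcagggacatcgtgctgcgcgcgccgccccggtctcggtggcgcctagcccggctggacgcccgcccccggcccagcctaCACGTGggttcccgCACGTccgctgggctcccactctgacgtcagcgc
Bnip3: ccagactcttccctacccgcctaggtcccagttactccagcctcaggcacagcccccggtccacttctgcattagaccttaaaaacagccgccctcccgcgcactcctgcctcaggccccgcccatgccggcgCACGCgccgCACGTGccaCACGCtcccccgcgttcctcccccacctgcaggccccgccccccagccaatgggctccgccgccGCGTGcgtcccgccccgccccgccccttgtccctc
Slc16a3: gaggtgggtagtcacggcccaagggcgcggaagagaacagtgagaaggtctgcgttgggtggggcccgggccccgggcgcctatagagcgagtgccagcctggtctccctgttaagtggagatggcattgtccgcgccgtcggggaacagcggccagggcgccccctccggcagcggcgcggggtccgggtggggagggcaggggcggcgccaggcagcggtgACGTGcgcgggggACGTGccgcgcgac
Pgk1: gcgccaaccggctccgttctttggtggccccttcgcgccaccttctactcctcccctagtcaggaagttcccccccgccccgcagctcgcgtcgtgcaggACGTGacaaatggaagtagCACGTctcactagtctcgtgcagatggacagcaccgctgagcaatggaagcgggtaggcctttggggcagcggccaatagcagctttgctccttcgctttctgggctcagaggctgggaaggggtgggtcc
Ldhb: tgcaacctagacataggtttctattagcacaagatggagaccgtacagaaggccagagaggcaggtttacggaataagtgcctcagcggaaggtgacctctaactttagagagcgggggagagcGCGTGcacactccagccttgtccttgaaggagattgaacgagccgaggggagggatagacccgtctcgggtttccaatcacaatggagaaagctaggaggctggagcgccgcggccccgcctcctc
The Ldha window held 5 ACGTG matches, the Bnip3 window 2 with 3 GCGTG, the Slc16a3 and Pgk1 windows 2 ACGTG each, and the window of Ldhb, which rose, 1 GCGTG. Eno3 and Pfkl, not shown, were also lower in both layers, and their windows held 0 ACGTG and 1 GCGTG, as that of Ldhb did. Pfkfb3, Pgam1 and Pkm, the other members lower in both layers, had ACGTG in at least 1 window. The motif was thus not shared by all members that fell. Windows were found for 30 of the 31 members (not Slc2a3), 42 in all since some genes have several starts. ACGTG was in 45.2% of them and in 16.6% of all 32851 windows of the table, and either motif was in 81.0% and 38.6%. Some windows of the same gene overlap (Pfkm and Eno1) and were counted singly. The members were picked as glycolysis and hypoxia genes, so these shares are no test. A match is a string of letters and shows no binding.

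Stage by stage, the calls fell on the step from E9.5 to E10.5. In ectoderm 4 members were lower (Eno3, Pfkfb3, Slc16a3, Bnip3) and 2 higher (Slc2a3, Ldhb), against 1.18% and 2.95% of all tested genes. In mesoderm 7 were lower (Slc2a1, Hk2, Eno3, Pdk1, Slc16a1, Slc16a3, Bnip3) and 1, Ldhb, higher, against 3.95% and 5.30%. The largest were Eno3 (-1.90, SE 0.31, edgeR adjusted p = 0.0028) and Pdk1 (-1.71, SE 0.16, edgeR adjusted p = 0.000137) in mesoderm, and Eno3 (-1.64, SE 0.31, edgeR adjusted p = 0.0126) and Slc16a3 (-1.48, SE 0.36, edgeR adjusted p = 0.0449) in ectoderm. All 6 ectoderm calls were lost without at least 1 library, and their counts then ran from 0 to 4 lower and 0 to 2 higher. Without mesoderm E9.5 replicate 1, mesoderm E10.5 replicate 1 or mesoderm E10.5 replicate 2 the mesoderm count of lower members was 4, 3 and 3. With the replicate block 18 members were lower and 2 higher in ectoderm, where 5.95% and 9.34% of all tested genes were. In mesoderm 23 were lower and 2 higher, against 14% and 13.7%.

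No member was called between E10.5 and E11.5 or between E11.5 and E12.5 in either layer by edgeR, where 0.00645% and 0.394% (first step, ectoderm and mesoderm) and 0.426% and 0.310% (last step) of tested genes were. At an unadjusted p under 0.05, 3 members were lower from E10.5 to E11.5 in ectoderm (Eno3, Slc16a3 and Bnip3) and 1 in mesoderm (Hk2), while from E11.5 to E12.5 Slc2a1 and Egln3 were higher and Slc16a3 lower in ectoderm, and Aldoc and Pdk1 higher in mesoderm. Of all tested genes, 7.80% and 9.60% passed that unadjusted threshold in either direction in the first step (ectoderm and mesoderm), and 8.82% and 9.96% in the last, so the 3, 1, 3 and 2 of 31 members were near or below those shares. DESeq2 called Hk2 lower from E10.5 to E11.5 in mesoderm (DESeq2 adjusted p = 0.0105) and no other member in these 4 comparisons. The replicate block called 5 members from E10.5 to E11.5 in ectoderm (Pgk1, Pgam1, Eno3 and Slc16a3 lower, Pfkm higher) and 3 in mesoderm (Hk2, Pgk1 and Eno1 lower), where 2.80% and 4.81% of all tested genes were called in either direction. From E11.5 to E12.5 it called Slc16a3 lower in ectoderm (-0.93, edgeR adjusted p = 0.00848), with 3.64% of all tested genes called.

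**Figure D3:**
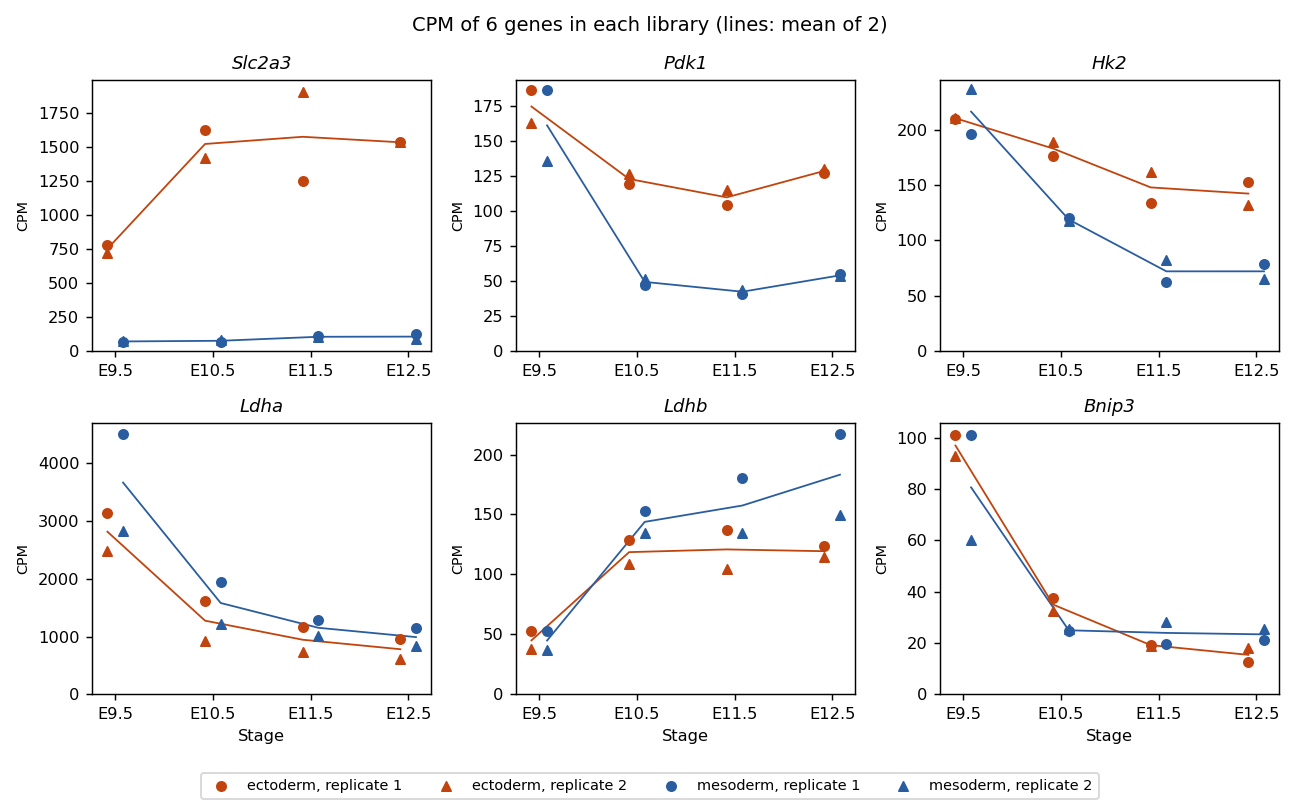
CPM (y axis, linear, from 0) of 6 genes at the 4 stages (x axis) in ectoderm (orange) and mesoderm (blue); circles are replicate 1, triangles replicate 2 and lines join the mean of the 2. Slc2a3 is apart between the layers at every stage, Pdk1 and Hk2 part after E9.5, Ldha and Bnip3 are highest at E9.5 and Ldhb is lowest there.

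The layer comparison asked which members set the ectoderm apart from the mesoderm beneath it. Averaged over the 4 stages, 8 members were higher and 8 lower in ectoderm, where 24.3% and 21.4% of all tested genes were, so the share of members called was near the background. Their median log2 difference was -0.09, beside 0.01 for all tested genes. Only Slc2a3 and Pfkp had 8 ectoderm and 8 mesoderm libraries that did not overlap, 2 of 31 members where 12.9% of all tested genes did not. Blocking on the embryo batch, the count higher was 10 and that lower was 14, against 34.0% and 31.9% of all tested genes under the same block. Of 8 cell division markers, 7 were lower in ectoderm on average, and their part in these differences was not tested. The count of lower members was between 3 and 5 without ectoderm E9.5 replicate 2, either ectoderm E10.5 library, ectoderm E11.5 replicate 2, either ectoderm E12.5 library, or replicate 1 of mesoderm E9.5, E10.5, E11.5 or E12.5.

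Slc2a3 stood furthest apart. Its 8 ectoderm libraries ranged from 724 to 1903 CPM (median 1479), and the 8 mesoderm libraries from 69.2 to 124 CPM (median 83.9). The average difference was 3.88 (SE 0.12, edgeR adjusted p = 7.66e-10), a 14.7-fold higher level, and by stage it was 3.42, 4.34, 3.91 and 3.86, each called. Slc2a1 was higher by 0.69 (SE 0.13, edgeR adjusted p = 0.000804) on average, at 138 to 411 CPM (median 206) in ectoderm and 93.7 to 311 CPM (median 118) in mesoderm, ranges that overlapped. Among the single stages Slc2a1 was called at E12.5 (1.156, SE 0.26, edgeR adjusted p = 0.00532), a call lost without ectoderm E12.5 replicate 1 or mesoderm E12.5 replicate 2 (edgeR adjusted p from 0.0533 to 0.0659), and with the embryo batch block at the other stages too.

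In upper glycolysis, 2 of the 3 phosphofructokinase genes were lower in ectoderm, where 21.4% of all tested genes were. Pfkp, the platelet-type phosphofructokinase, stood at 6.54 and 6.58, then 3.28 and 3.204, then 4.43 and 1.85, then 3.39 and 2.64 CPM in ectoderm. Mesoderm had 20.8 and 14.5, then 12.6 and 10.4, then 13.1 and 11.52, then 22.3 and 16.6 CPM. The highest ectoderm library was below the lowest mesoderm library, and the average difference was -1.97 (SE 0.18, edgeR adjusted p = 3.08e-06). Pfkm, the muscle-type form, was lower with a log2 difference of -0.64 (SE 0.11, edgeR adjusted p = 0.00069), and Pfkl, with 0.11 (SE 0.14, edgeR adjusted p = 0.558), was called only with the embryo batch block (edgeR adjusted p = 0.0398). Hk2 was higher by 0.65 (SE 0.09, edgeR adjusted p = 8.01e-05) and Hk1 lower with a log2 difference of -0.48 (SE 0.18, edgeR adjusted p = 0.0491). Aldoc, with 1052 counts in all, was higher by 1.30 (SE 0.15, edgeR adjusted p = 1.74e-05), at 3.45 to 8.12 CPM (median 5.4) in ectoderm and 1.48 to 4.01 CPM (median 1.92) in mesoderm. Pfkfb3 was lower with a log2 difference of -0.28 (SE 0.10, edgeR adjusted p = 0.0434). The Hk1 call was lost without any 1 of 10 libraries (edgeR adjusted p from 0.0566 to 0.131) and that of Pfkfb3 without any 1 of 12 libraries (edgeR adjusted p from 0.0504 to 0.103). Gpi1 and Tpi1 were not called (-0.03 ± 0.17 and -0.17 ± 0.22), Tpi1 being lower with the block (-0.16, edgeR adjusted p = 0.00598).

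Of the 7 genes of lower glycolysis, 2 were lower and 0 higher in ectoderm, where 21.4% and 24.3% of all tested genes were. Eno3 was lower with a log2 difference of -0.59 (SE 0.15, edgeR adjusted p = 0.00733), with single-stage calls at E11.5, lost without ectoderm E9.5 replicate 1, ectoderm E11.5 replicate 1, ectoderm E11.5 replicate 2 or mesoderm E11.5 replicate 1 (edgeR adjusted p from 0.0502 to 0.213), and E12.5, lost without any 1 of 6 libraries (edgeR adjusted p from 0.0564 to 0.279). Eno2 was lower with a log2 difference of -1.59 (SE 0.59, edgeR adjusted p = 0.0438), its ectoderm libraries lying between 0 and 0.725 CPM and those of mesoderm between 0.104 and 3.35 CPM, a call lost without any 1 of 12 libraries (edgeR adjusted p from 0.0533 to 0.165). The abundant Gapdh, Pgk1, Pgam1, Eno1 and Pkm were not called, with differences of -0.09 ± 0.21, -0.10 ± 0.15, 0.11 ± 0.17, -0.22 ± 0.21 and -0.28 ± 0.18. With the embryo batch block, Eno1 and Pkm were lower in ectoderm (-0.21 and -0.28, edgeR adjusted p = 0.00183 and 0.000139).

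For the fate of pyruvate, the kinase Pdk1 had 186 and 163, then 119.6 and 126, then 105 and 115, then 128 and 129.9 CPM in ectoderm. In mesoderm it had 187 and 136, then 47.1 and 51.7, then 40.8 and 43.9, then 54.7 and 53.4 CPM. The layers overlapped at E9.5 and did not from E10.5 on, and the average difference was 1.01 (SE 0.08, edgeR adjusted p = 8.97e-07). By stage it was 0.12 at E9.5, not called, and 1.32, 1.37 and 1.25 at the later stages, each called. Slc16a1 was higher in ectoderm by 0.83 (SE 0.10, edgeR adjusted p = 3.21e-05), while Slc16a3 was lower with a log2 difference of -0.52 (SE 0.18, edgeR adjusted p = 0.0326), with a single-stage call at E12.5 (-1.26, SE 0.36, edgeR adjusted p = 0.0236). The average Slc16a3 call was lost without any 1 of 9 libraries (edgeR adjusted p from 0.0563 to 0.0884), and the E12.5 call without ectoderm E12.5 replicate 2 or mesoderm E12.5 replicate 1 (edgeR adjusted p from 0.181 to 0.202). Pdha1 was lower with a log2 difference of -0.26 (SE 0.09, edgeR adjusted p = 0.0342), lost without any 1 of 9 libraries (edgeR adjusted p from 0.0569 to 0.0929). Ldha, Ldhb and Pdk3 were not called (-0.33 ± 0.19, -0.32 ± 0.13 and -0.20 ± 0.08), and with the block all 3 were lower in ectoderm (edgeR adjusted p = 0.000297, 0.000414 and 0.00574).

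Hif1a, with the highest median FPKM of the 6 hypoxia genes (36.9), was higher in ectoderm by 0.43 (SE 0.08, edgeR adjusted p = 0.00107), with overlapping libraries (204 to 278 against 162 to 204 CPM). Egln3 was higher by 0.56 (SE 0.19, edgeR adjusted p = 0.0343). It had 10.02 and 6.88, then 6.21 and 5.94, then 7.58 and 7.61, then 23.5 and 10.1 CPM in ectoderm. In mesoderm it had 13.6 and 7.81, then 3.76 and 4.98, then 5.32 and 4.93, then 6.19 and 5.43 CPM. The E12.5 ectoderm libraries differed from each other widely, and the average call was lost without any 1 of 12 libraries (edgeR adjusted p from 0.0522 to 0.0888). At E12.5 alone the difference was 1.53 (SE 0.39, edgeR adjusted p = 0.0118), lost without ectoderm E12.5 replicate 1, mesoderm E12.5 replicate 1 or mesoderm E12.5 replicate 2 (edgeR adjusted p from 0.055 to 0.179). Vegfa, Bnip3, Egln1 and Ankrd37 were not called (0.07 ± 0.18, -0.04 ± 0.13, 0.25 ± 0.11 and 0.28 ± 0.19), and the block called Egln1 higher (0.25, edgeR adjusted p = 0.000965).

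At E9.5, 3 members were higher and 1 lower in ectoderm (background 13.1% and 8.29%). At E10.5 the numbers were 6 and 2 (16.2% and 10.2%). The E11.5 comparison gave 4 and 2 (12.9% and 7.69%), and that of E12.5 gave 6 and 4 (13.3% and 13.2%). Of these 4, 8, 6 and 10 calls, 2, 4, 4 and 5 were kept without each library in turn. Slc2a3 and Pfkp were called at all 4 stages, and the Pfkp call at E9.5 was lost without ectoderm E9.5 replicate 1, ectoderm E9.5 replicate 2 or mesoderm E9.5 replicate 1 (edgeR adjusted p from 0.0821 to 0.103). Aldoc was called at E9.5 (2.201, SE 0.30, edgeR adjusted p = 0.000294) and E10.5 (1.64, SE 0.30, edgeR adjusted p = 0.00168). Hif1a was called higher at E9.5 and E10.5. Both Hif1a calls were lost without any 1 of 13 libraries (log2 from 0.38 to 0.63 and from 0.41 to 0.53). They were also lost with RLE size factors, without a filter on low counts and with only the 2 groups in the fit. Pfkm was called lower at E10.5 and E12.5, each call lost without any 1 of 3 libraries, and that at E12.5 also with only the 2 groups. Hk2, Pdk1 and Slc16a1 were called at every stage but E9.5. The Pdk1 calls held in all alternatives run. The Hk2 call at E10.5 was lost without ectoderm E10.5 replicate 1, ectoderm E10.5 replicate 2, mesoderm E10.5 replicate 1 or mesoderm E10.5 replicate 2 (edgeR adjusted p from 0.063 to 0.112) and without a filter on low counts, and that at E11.5 with only the 2 groups in the fit. The Slc16a1 call was lost at E10.5 without mesoderm E10.5 replicate 1 (edgeR adjusted p = 0.0842), and at E11.5 without ectoderm E11.5 replicate 2 or mesoderm E11.5 replicate 1 (edgeR adjusted p from 0.0884 to 0.11) and with only the 2 groups in the fit. Blocking on the embryo batch gave, in order of stage, 6, 10, 7 and 8 higher and 9, 9, 8 and 12 lower. The same block called, in that order, 22.1, 25.8, 21.9 and 23.9% of all tested genes higher and 20.3, 22.8, 18.1 and 21.7% lower. Without mesoderm E10.5 replicate 1 the count higher at E10.5 was 3, and without mesoderm E12.5 replicate 1 the count lower at E12.5 was 1. The lower call at E9.5 was absent without either E9.5 ectoderm library or mesoderm E9.5 replicate 1. At E10.5, 1 of the 2 lower calls was left without either ectoderm library or mesoderm replicate 1 of that stage. At E11.5, 1 was left without either ectoderm library or mesoderm replicate 1 of the stage, or without ectoderm E9.5 replicate 1, and at E12.5, 2 were left without either ectoderm library.

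**Figure D4:**
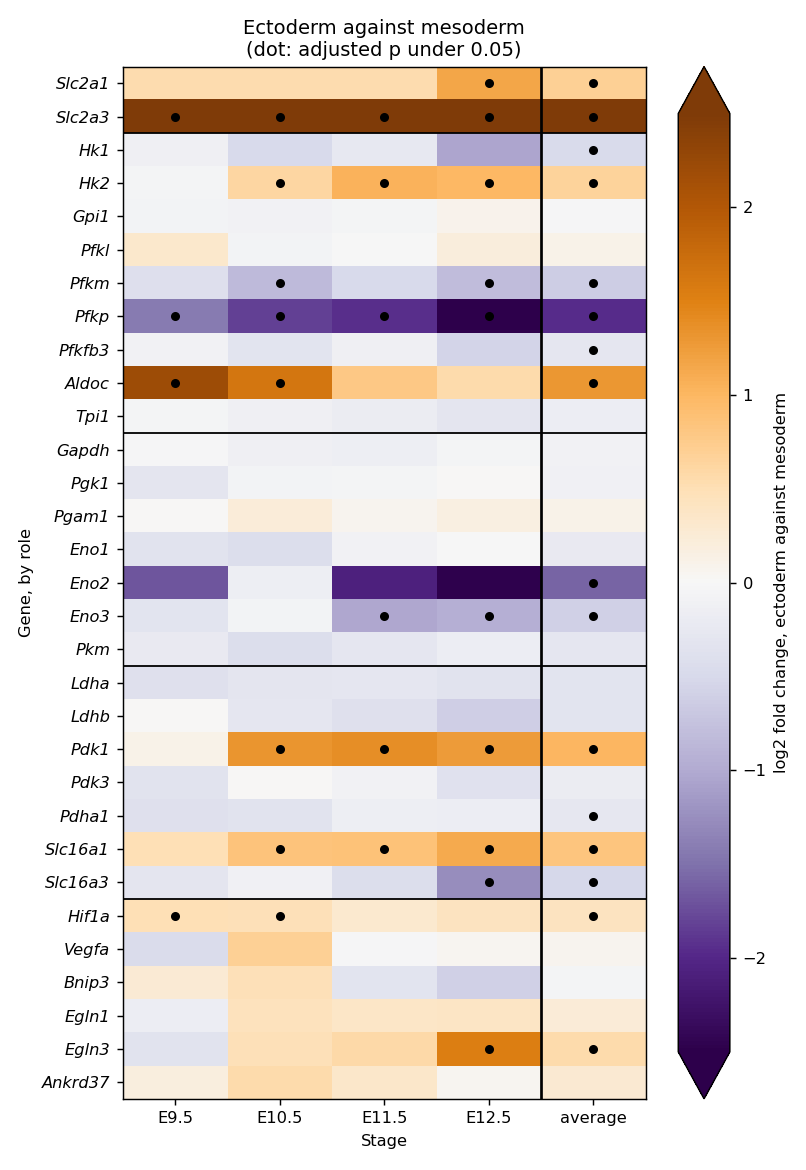
log2 fold change of ectoderm against mesoderm (colour, orange higher and purple lower in ectoderm) of the 31 genes (rows, grouped by role) at each stage and on average (columns), with a dot where the edgeR adjusted p was under 0.05. Slc2a3 and Pfkp carry a dot in every column, and Hk2, Pdk1 and Slc16a1 carry one at every stage but E9.5.

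Whether a member changed differently in the layers from E9.5 to E12.5 was tested as an interaction, positive where the change was more upward in ectoderm. By edgeR, 2 members were positive and 1 negative, against 3.12% and 5.15% of all tested genes. Pdk1 had an interaction of 1.14 (SE 0.22, edgeR adjusted p = 0.0103), lost without ectoderm E9.5 replicate 2 (edgeR adjusted p = 0.0538). For Hk2, ectoderm libraries had 210.0 and 211, then 177 and 189, then 134 and 162, then 153 and 132 CPM. Its mesoderm libraries had 196 and 237, then 120.2 and 118, then 62.03 and 82.1, then 78.8 and 65.3 CPM. The interaction of Hk2 was 1.02 (SE 0.25, edgeR adjusted p = 0.0286), and that of Aldoc -1.64 (SE 0.41, edgeR adjusted p = 0.0313). The Hk2 call was lost without any 1 of 5 libraries (edgeR adjusted p from 0.0923 to 0.111) and without a filter on low counts, and the Aldoc call without any 1 of 8 libraries (edgeR adjusted p from 0.0573 to 0.115) and without that filter (edgeR adjusted p = 0.13). Blocking on the embryo batch, 6 members were positive (Slc2a1, Hk2, Pdk1, Slc16a1, Egln1 and Egln3) and 8 negative (Hk1, Pfkm, Pfkp, Pfkfb3, Aldoc, Ldhb, Slc16a3 and Bnip3), beside 11.7% and 13.2% of all tested genes.

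Where a step has several isozymes or transporters, the share of each in their summed FPKM (the authors' deposited values, which correct for length) was compared between layers by an exact permutation of the layer labels within stages, two-sided, over 1296 arrangements with a smallest possible p of 0.001543. In all 11 shares were tested and p adjusted over them. Slc2a3 made up 78.8% of the Slc2a1 and Slc2a3 total in ectoderm on average and 34.2% in mesoderm, higher in ectoderm in 8 of 8 embryo batches (exact permutation, adjusted p = 0.0034). In ectoderm it went from 59.05% ± 0.682 (SD, n = 2) at E9.5 to 82.8% ± 3.75 at E12.5, and in mesoderm from 17.99% ± 4.35 to 44.8% ± 3.63. The lowest ectoderm library, 58.6%, was above the highest mesoderm library, 47.3%.

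Among hexokinases, Hk2 held 65.8% of the Hk1 and Hk2 total in ectoderm and 47.2% in mesoderm (exact permutation, adjusted p = 0.00485). Its mesoderm share was, in order of stage, 69.95% ± 7.48, 50.01% ± 5.63, 36.5% ± 10.3 and 32.3% ± 6.81 (SD, n = 2). Ectoderm libraries ran from 52.9 to 76.7%. Pfkl was the main phosphofructokinase in both layers, with 80.6% in ectoderm and 70.97% in mesoderm, while Pfkm had 18.6% and 25.7% and Pfkp 0.871% and 3.28% (exact permutation, adjusted p = 0.0034 for each). In mesoderm the Pfkm share was 14.2% ± 1.001 at E9.5 and 35.9% ± 0.7904 at E12.5. These 3 shares sum to the whole and are not independent.

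The share of Ldhb among the lactate dehydrogenases was lowest at E9.5. Of the Ldha and Ldhb total, Ldhb held 2.302% ± 0.132, 12.8% ± 2.66, 16.1% ± 1.76 and 19.1% ± 4.51 in ectoderm from the earliest stage to the latest (SD, n = 2). Mesoderm had 1.74% ± 0.0982, 11.9% ± 2.33, 16.99% ± 0.804 and 21.01% ± 0.742. All E9.5 libraries of a layer were below all later ones, and the layer difference was -0.322 percentage points (exact permutation, adjusted p = 0.779). Slc16a3 made up 48.3% of the Slc16a1 and Slc16a3 total in ectoderm and 69.98% in mesoderm (exact permutation, adjusted p = 0.00485), and in ectoderm its share went from 69.9% ± 8.73 at E9.5 to 27.2% ± 8.41 at E12.5. Pdk3 made up 49.4% of the Pdk1 and Pdk3 total in ectoderm and 68.8% in mesoderm (exact permutation, adjusted p = 0.0034). The shares of Eno3 and Egln3 were not called (exact permutation, adjusted p = 0.119 and 0.217). That of Eno2, 0.0434% against 0.155%, passed (exact permutation, adjusted p = 0.0361) but not with exact sign flips of the 8 within-batch differences (adjusted p = 0.0537), nor without any 1 of 8 libraries.

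**Figure D5:**
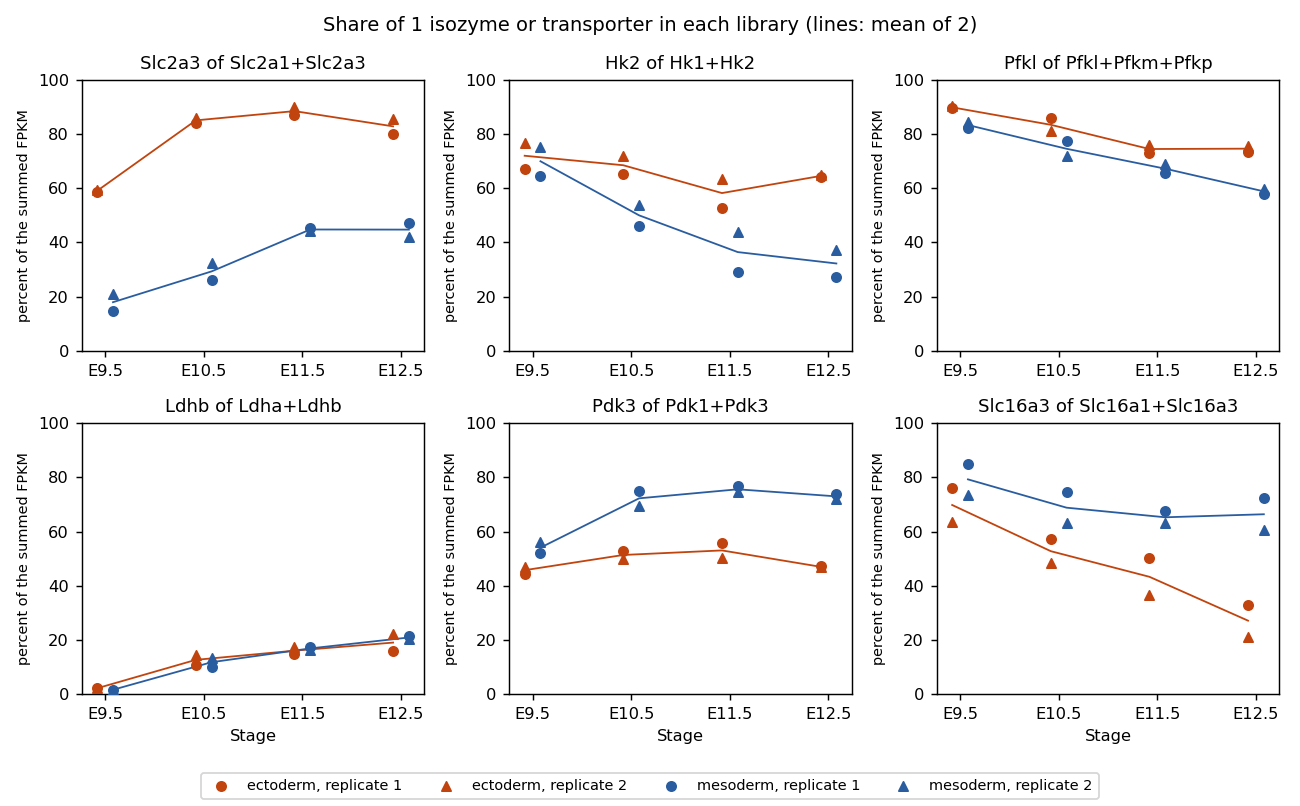
Share of 1 gene in the summed FPKM of its isozymes or transporters (y axis, percent) at the 4 stages (x axis) in ectoderm (orange) and mesoderm (blue); circles are replicate 1, triangles replicate 2 and lines join the mean of the 2. The layers are apart at each stage for Slc2a3, run together for Ldhb, and move apart after E9.5 for Hk2 and Pdk3.

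Exon use was read from deposited counts per exon bin, the smallest stretch between annotated exon borders, for 30 members (not Eno2, too low). Between the layers, 1 member was called by edgeR (Simes p over the bins of a gene, adjusted over 12203 genes), where 1.62% of genes were. In Slc2a3 an upstream exon at chr6:122797802-122797879 (mm10, minus strand) had 1 to 9 counts in each ectoderm library, 22 in all, and 5 to 26 in each mesoderm library, 111 in all. That was 0.00974% and 0.602% of the bin counts of the gene, and the libraries of the layers did not overlap in this share (0.00367 to 0.0236% against 0.327 to 0.818%). The relative use was -6.10 on the log2 scale (edgeR Simes adjusted p = 7.44e-29). This value sets the exon against its gene, which had 225962 bin counts in ectoderm and 18425 in mesoderm. The higher level of Slc2a3 in ectoderm therefore enters it, and the counts of the exon itself are low in both layers. The last exon of Slc2a3 held 49.2% and 47.5% of its counts (0.05 on the log2 scale, edgeR adjusted p = 1).

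Vegfa as a gene did not pass (edgeR Simes adjusted p = 0.082), while 1 of its bins did when bins were adjusted singly (edgeR adjusted p = 0.0363, relative use 3.58 on the log2 scale). The gene passed when the embryo batch was blocked, where 3.56% of genes did, and without mesoderm E10.5 replicate 2. That bin and its neighbour (2.33, edgeR adjusted p = 0.374) form the 72-base exon at chr17:46022277-46022348 (mm10, minus strand), which codes for a basic stretch of the long, matrix-bound form of VEGFA that its more diffusible forms lack. It is shown, 5′ to 3′, because the bin that passed lies in it.
Vegfa exon: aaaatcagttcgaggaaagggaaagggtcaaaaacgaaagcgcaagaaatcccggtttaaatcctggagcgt
This exon had 103 counts over the ectoderm libraries, 1.37% of the gene's bin counts and 44 of them in 1 library, and 22 over the mesoderm libraries, 0.243%. The ectoderm counts were 0 and 26, then 8 and 44, then 3 and 9, then 3 and 10, with replicate 2 the higher at every stage. The part of the batch or kit in this difference was not tested. Single libraries ran from 0 to 3.17% in ectoderm and from 0 to 0.493% in mesoderm and overlapped. The next exon downstream held 4.79% and 4.38%. The alternative exons that distinguish the M1 and M2 forms of Pkm have no bin of their own, since the gene Gm49759 on the same strand covers them, and their share was not computed.

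The 2 embryo batches of each stage, extracted with different kits, differed in these genes. In a comparison added after the data were seen, 18 members were higher in replicate 1 and 4 lower (edgeR, adjusted p under 0.05), where 27.0% and 25.3% of all tested genes were. Replicate 1 was the higher in all 8 groups for 15 members. The largest differences were those of Tpi1 (0.70, SE 0.06, edgeR adjusted p = 1.03e-06), Eno1 (0.66, SE 0.06, edgeR adjusted p = 2.11e-06), Gapdh (0.64, SE 0.06, edgeR adjusted p = 2.46e-06) and Ldha (0.57, SE 0.06, edgeR adjusted p = 5.01e-06). The 4 lower in replicate 1 were Vegfa (-0.48, SE 0.11, edgeR adjusted p = 0.00201), Slc16a1 (-0.25, SE 0.05, edgeR adjusted p = 0.00162), Pfkfb3 (-0.19, SE 0.07, edgeR adjusted p = 0.0409) and Hif1a (-0.16, SE 0.05, edgeR adjusted p = 0.015). Slc2a3, Hk2, Pdk1, Aldoc and Bnip3 were not called between replicates. These differences enter the spread of the comparisons without a block.

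Other genes of the pathway were read by the same fit. Of 36 other glycolysis and pyruvate genes tested, 7 were higher and 11 lower in ectoderm on average. Of all tested genes, 24.3% and 21.4% were. From E9.5 to E12.5, 4 of the 36 rose and 3 fell in ectoderm, near the 9.10% and 7.0% of all tested genes. In mesoderm 10 rose and 8 fell, beside 17% and 12.6%. The median log2 change of the 36 in ectoderm was 0.05, beside -0.70 for the 31 members. Members and lists were chosen with earlier results of these data known, so this contrast is no test. Slc2a12 (GLUT12, a further glucose transporter) was higher in ectoderm by 3.86 ± 0.16 (log2 ± SE, edgeR adjusted p = 3.78e-09) and rose there by 1.72 ± 0.28 (edgeR adjusted p = 0.00163). Txnip, which restrains glucose uptake, rose in ectoderm by 2.34 ± 0.32 (edgeR adjusted p = 0.000568). Slc16a7 (MCT2) was higher in ectoderm by 1.78 ± 0.18 (edgeR adjusted p = 8.36e-06) and rose in mesoderm by 4.06 ± 0.41, from 0.676 ± 0.26 to 11.6 ± 0.835 CPM (edgeR adjusted p = 7.02e-05). Pgm2 fell in both layers, with log2 changes of -1.53 ± 0.35 and -1.59 ± 0.35 (edgeR adjusted p = 0.0131 and 0.00628). Pklr, the liver and red cell pyruvate kinase, was lower in ectoderm, as were all 8 erythroid markers tested, and stood at 14.1 ± 1.18 CPM in E9.5 mesoderm and 1.72 ± 1.83 CPM in E9.5 ectoderm. The part of blood in it was not tested.

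Of 45 other hypoxia pathway genes, 14 were higher and 14 lower in ectoderm on average. From E9.5 to E12.5, 3 of them rose and 11 fell in ectoderm, and 10 rose and 14 fell in mesoderm. The median log2 change of the 45 in ectoderm was -0.38. The shares of all tested genes given above for the other glycolysis genes are the background of these lists too. Stc2 (stanniocalcin 2) fell in both layers, with log2 changes of -2.69 ± 0.46 and -3.76 ± 0.49 (edgeR adjusted p = 0.0025 and 0.000279), and so did Ak4 (adenylate kinase 4), with -1.77 ± 0.44 and -3.20 ± 0.47 (edgeR adjusted p = 0.0191 and 0.000584). Epas1 (HIF2A, known from endothelium) was lower in ectoderm with a log2 difference of -3.62 ± 0.18 (edgeR adjusted p = 1.56e-08), as were all 8 endothelial markers, and the part of vessels in it was not tested. Ndrg1 was higher in ectoderm by 1.97 ± 0.26 and fell there with a log2 change of -1.96 ± 0.51 (edgeR adjusted p = 5.74e-05 and 0.0222). Car12 (a carbonic anhydrase) rose in ectoderm by 1.76 ± 0.24 (edgeR adjusted p = 0.000607), and Hif3a rose in mesoderm by 2.56 ± 0.35 (edgeR adjusted p = 0.000382). From E9.5 to E12.5 in mesoderm 5 of 18 citric acid cycle genes fell, and of 26 nuclear respiratory chain genes 1 rose and 2 fell. Between the layers 3 and 3 of the 18, and 1 and 1 of the 26, were higher and lower in ectoderm on average. Of 8 pentose phosphate genes tested, 1 rose and 1 fell in ectoderm and 1 fell in mesoderm.

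Some members share sequence or position with other genes, which limits their values. At 95% identity over at least 150 bases, 145 other genes resembled Gapdh and together had 31.5% of its counts, and the genes resembling Eno1 had 19.6%, led by Eno1b with 50115 counts. The share was 26.5 to 36.4% for Gapdh and 18.3 to 20.7% for Eno1 in single libraries, and how the authors' counting split such reads was not stated. Slc2a3 transcripts resembled parts of 32 other genes, which together had 294923 counts, 157% of the 187923 of Slc2a3, the most abundant being Luc7l2. The exons of Pfkp overlap those of Pitrm1 on the other strand by 748 bases, with 74735 counts for Pitrm1 and 2942 for Pfkp, and those of Ankrd37 (928 counts) overlap Ufsp2 (8367 counts) by 57 bases. Pfkm (24916 counts) overlaps Senp1 (33193 counts) by 18 bases. Whether counting used the strand is not stated, so reads of these neighbours cannot be told apart from those of Pfkp, Ankrd37 and Pfkm.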

How the data were processed

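RNA-seq of 16 libraries was read from the authors' deposited table of counts per gene (raw and whole, 10005867 to 30438214 per library), their deposited FPKM table and their deposited counts per exon bin. The submitters' processing notes name cutadapt 1.16, STAR 2.6.0c, Cufflinks 2.2.1, bedtools 2.27.1 and build mm10. Which tool made the gene counts, and whether counting used the strand, is not stated in the sources at hand. FPKM, which correct for transcript length and depth, were used as deposited by the authors, for levels between genes and isozyme shares.

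Counts were fitted with edgeR 4.0.16 (TMM scaling, filterByExpr, which left 15501 genes, quasi-likelihood F test, 8 group means, p adjusted by Benjamini-Hochberg over all 15501). CPM are TMM scaled. Exon use was tested with diffSpliceDGE of edgeR on bin counts, and shares with an exact permutation test that listed every arrangement (Python 3.11.15). Similar transcripts came from blastn 2.17.0 and the GENCODE annotation, and start windows from RefSeq. Alternatives were DESeq2 1.42.0, RLE size factors, no filter, only the groups compared, each library left out, and a replicate block. The scripts were tested on simulated data.

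All 31 members were named, and of each other list at most the 3 higher and 3 lower genes with the largest change among those called in the layer average or in E12.5 against E9.5. Genes outside the lists were named only where they can share reads with a member. The members and lists were chosen with earlier results of these data known. Labels state that ectoderm and mesoderm of a replicate share an embryo batch, and deviations from the group means correlated between them at r = 0.546, 0.666, 0.561 and 0.651 from the earliest stage to the latest, across genes, which are not independent. Between stages, same-numbered libraries correlated at 0.427 to 0.583 in ectoderm and 0.529 to 0.568 in mesoderm, so the numbers were taken to pair the samples. With 2 replicates a group, the p-values rest on the spread of these samples only.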

Additional observations from a re-analysis of the deposited data

Results flagged for a closer look

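In 3 members the E9.5 to E12.5 change differed between the layers by the interaction test of edgeR, 2 libraries a group. Hk2 had an ectoderm change minus mesoderm change of 1.02 (SE 0.25, edgeR adjusted p = 0.0286) on the log2 scale. Pdk1 had 1.14 (SE 0.22, edgeR adjusted p = 0.0103), and Aldoc, which has few counts, had -1.64 (SE 0.41, edgeR adjusted p = 0.0313). Hk2 and Pdk1 fell and Aldoc rose in mesoderm, while their ectoderm changes were not called. With the replicate number as a block, the ectoderm changes of Hk2 and Pdk1 were called too (-0.56 and -0.44, edgeR adjusted p = 0.0104 and 0.022). Each of the 3 interaction calls was lost without at least 1 library.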

How the results depend on the processing

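No member result changed direction past the threshold under any alternative. Of 89 calls of members, 43 were kept under every alternative and 45 without each library. Over all 434 member results, DESeq2 added 21 calls and lost 0. With a replicate block (the embryo batch, pairing the layers) ectoderm had 6 higher and 9 lower members at E9.5, 10 higher and 9 lower at E10.5, 7 higher and 8 lower at E11.5, 14 lower on average, 12 lower at E12.5, and 6 and 8 for the interaction, and exon use was called in 2 members. With the replicate number as the block, 20 fell in ectoderm and 5 rose in mesoderm from E9.5 to E12.5. The same block gave 18 lower in ectoderm, and 2 higher and 23 lower in mesoderm, at E10.5 against E9.5. At E11.5 against E10.5 it gave 1 higher and 4 lower in ectoderm and 3 lower in mesoderm, and at E12.5 against E11.5 it gave 1 lower in ectoderm. The Eno2 share differed by -0.112 percentage points and lost its call under within-batch sign flips of the pairing.

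With only the groups compared in the fit, 2 were higher and 0 lower at E11.5, 1 lower at E12.5, 1 higher in mesoderm from E9.5 to E12.5, and at E10.5 against E9.5 1 higher in ectoderm and 4 lower in mesoderm. Without a filter on low counts, 7 were lower at E12.5, 15 lower in ectoderm and 4 higher in mesoderm from E9.5 to E12.5, 10 and 12 lower at E10.5 against E9.5 in ectoderm and mesoderm, 2 and 1 lower in the later ectoderm steps, and 0 lower in the interaction. DESeq2 gave 14 lower at E10.5 and 1 lower at E11.5, each against the stage before in mesoderm. Shares of all tested genes called were not taken for DESeq2, for the fit without a filter or for that with only the groups compared. The member counts of these settings therefore have no background beside them. The cause of these differences was not tested.

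Without each library in turn, the counts were 7 to 8 higher and 3 to 8 lower on average between the layers, 0 to 3 higher and 5 to 11 lower from E9.5 to E12.5 in ectoderm, 1 to 4 higher and 11 to 15 lower from E9.5 to E12.5 in mesoderm, 0 to 3 higher and 0 to 1 lower in the interaction, 0 to 2 higher and 0 to 4 lower from E9.5 to E10.5 in ectoderm, 1 higher and 3 to 8 lower from E9.5 to E10.5 in mesoderm, 2 to 3 higher and 0 to 1 lower between the layers at E9.5, 3 to 6 higher and 1 to 2 lower between the layers at E10.5, 3 to 4 higher and 1 to 2 lower between the layers at E11.5, 4 to 6 higher and 1 to 4 lower between the layers at E12.5, and 1 to 2 members in exon use. The Eno2 share ran from -0.1698 to -0.0533 percentage points. Leaving out a library leaves its group with 1 sample, assumed to vary like the others. The share of the alternative Pkm exons was not run, since they have no bin. Depth limits Eno2 (213 counts), Ankrd37 (928) and Aldoc (1052).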
